A study of Arabidopsis thaliana with 18 samples.

Results

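Dark-grown Arabidopsis thaliana seedlings elongate in search of light, and their first minutes of blue light start the change to a short, green seedling. The comparison described here set wild type after 30 min of blue light against wild type kept in darkness. It used 6 of the 18 libraries of the study: 3 from blue light (WT_blue 1-3) and 3 from darkness (WT_dark 1-3). Of the 32833 loci with a value, 19985 reached a mean of at least 1 TPM and were tested. TPM is a length-scaled measure of a transcript's share of a library.

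All seedlings were Col-0, 4 days old and grown on half-strength MS medium, a standard mineral medium, in continuous darkness. The blue-light seedlings were then moved to blue light of 30 μmol·m-2·s-1 (photon flux) for 30 min. RNA came from seedlings, and stranded mRNA libraries were made from it. A further 3 libraries of dark-grown wild type (WT_dark 4-6) served as a second dark reference, and dark and blue-light libraries of the cry2-1 mutant (n = 3 each), which lacks a blue-light receptor, entered the fit and 1 comparison. The labels do not say whether replicates were separate cultures, so p-values measure only the spread between these libraries.

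Blue light is sensed by cryptochromes, which act through the COP1/SPA ubiquitin ligase and the transcription factors it degrades, and by phototropins, which steer growth towards light and position chloroplasts. Light also starts the assembly of photosynthetic complexes, and absorbed light that these cannot use produces reactive oxygen. Plants meet this with protective pigments, light-stress proteins, antioxidants and chaperones, while cell elongation in the hypocotyl slows.

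WT_dark 1-3 and WT_dark 4-6 stood apart from each other. Across loci, the correlation of log2(TPM + 1) was 0.969 to 0.976 within WT_dark 1-3, 0.964 to 0.975 within WT_dark 4-6 and 0.957 to 0.981 within WT_blue. WT_blue correlated at 0.827 to 0.838 with WT_dark 1-3 and at 0.899 to 0.946 with WT_dark 4-6. Loci of the organelle genomes summed to 34290.0 to 36382 TPM per library in WT_dark 1-3. In WT_dark 4-6 this sum was 2076 to 2801 TPM, close to the 2913 to 5009 TPM of WT_blue. The header names of the libraries carry the prefix Da in WT_dark 1-3, D in WT_dark 4-6 and M in WT_blue, which no label explains, so light and the series of libraries cannot be told apart. TPM keep no read totals, so the depth is unknown. Because WT_dark 1-3 differed from WT_dark 4-6, each list below is given against both sets. A change of a single gene with no reference named is against WT_dark 1-3.

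After 30 min of blue light, 12317 of the 19985 loci differed from WT_dark 1-3 by limma at an adjusted p under 0.05, which is 61.6%. Of these, 5736 (28.7%) were higher and 6581 (32.9%) lower. The median log2 change of all loci was -0.04 against WT_dark 1-3 and -0.16 against WT_dark 4-6, and changes are to be read relative to these shifts. A locus is called separated here when it passed the test, changed at least 2-fold, and lay beyond all 6 dark libraries in each of the 3 blue-light libraries. This held for 1121 higher loci (5.61% of those tested) and 1260 lower loci (6.30%). At least 4-fold change was seen in 442 of the higher and 234 of the lower ones, and at least 16-fold in 51 and 14. By this rule a separated locus cannot overlap with the dark libraries, so lack of overlap is no further result for it. The libraries did not contribute evenly to this separation. Of the separated higher loci, 517 had WT_dark 6 as the highest dark library, and 629 had WT_blue 3 as the lowest blue-light library. Of the separated lower loci, 612 had WT_dark 4 as the lowest dark library. In a fit with WT_dark 4-6 in place of WT_dark 1-3, 1805 of 19888 loci were higher (9.08%) and 3989 lower (20.1%), and the counts of each list are to be read against the shares for the same reference. Of the separated loci, 667 of the 1121 and 289 of the 1260 were separated again with that reference.

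The genes with the largest rises are named here from those with a symbol, which passes over 16 rises and 23 falls of loci without one. BBX32, a B-box protein that restrains the light-signalling factor HY5, was listed at 0.05, 0 and 0.11 TPM in WT_dark 1-3, 0, 0.04 and 0.98 TPM in WT_dark 4-6 and 122, 129 and 84.7 TPM in WT_blue. Its log2 change was 6.72 ± 0.15 (SE, adjusted p = 5.78e-12). All 3 blue-light libraries lay far above the 6 dark ones, of which WT_dark 6 was the highest. Its short relative BBX30 was listed at 0.28, 0.15 and 0 TPM in WT_dark 1-3, 0, 0.66 and 1.96 TPM in WT_dark 4-6 and 33.3, 43.9 and 42.7 TPM in WT_blue. BBX31, a further small B-box protein, was listed at 0, 0.26 and 0 TPM in WT_dark 1-3, 0.12, 0.18 and 0.44 TPM in WT_dark 4-6 and 11.9, 16.1 and 25.1 TPM in WT_blue. SIGE, also named SIG5, a sigma factor that directs the plastid RNA polymerase to light-responsive promoters, was listed at 2.33, 2.68 and 2.73 TPM in WT_dark 1-3, 2.07, 5.21 and 14.1 TPM in WT_dark 4-6 and 124, 142 and 99.1 TPM in WT_blue. Both dark sets were low for SIGE, with WT_dark 6 again the highest, and the log2 change was 5.09 ± 0.15 (SE, adjusted p = 8.29e-11). PRR9, a clock gene, rose (0.44 to 2.24 TPM in the 6 dark libraries, 46.8 to 88.9 TPM in blue light). CYP71B17, a cytochrome P450, shows the effect of the dark reference: it was listed at 0, 0 and 0.09 TPM in WT_dark 1-3, 28.0, 19.9 and 23.5 TPM in WT_dark 4-6 and 47.3, 44.1 and 28.9 TPM in WT_blue. Its change of 5.29 against the first set was 0.71 against the second.

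Of the loci at or below 0.5 TPM in all 6 dark libraries, 8 reached at least 5 TPM in each blue-light library, and 5 of them have a symbol. Besides BBX31 these were ASG4, a MYB-related gene, the phloem protein 2-like genes PP2-B13 and PP2-B14, and the small nucleolar RNA SNOR111. ASG4 was listed at 0, 0.15 and 0 TPM in WT_dark 1-3, 0.19, 0.46 and 0.39 TPM in WT_dark 4-6 and 23.0, 29.4 and 19.2 TPM in WT_blue. PP2-B14 rose (0 to 0.22 TPM in the 6 dark libraries, 15.2 to 20.2 TPM in blue light), and PP2-B13, its neighbour in name and locus number, (0 to 0.44 TPM in the 6 dark libraries, 9.25 to 16.3 TPM in blue light). SNOR111 was listed at 0 in all 6 dark libraries and at 28.2, 22.1 and 40.9 TPM in WT_blue.

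Among the 12 largest falls of genes with a symbol, RTFL21, which encodes a small peptide, was listed at 55.9, 51.6 and 46.5 TPM in WT_dark 1-3, 56.6, 33.8 and 23.4 TPM in WT_dark 4-6 and 5.16, 2.08 and 2.26 TPM in WT_blue. GRF7, a growth-regulating factor known to repress DREB2A, was listed at 46.0, 48.2 and 62.4 TPM in WT_dark 1-3, 36.5, 48.5 and 27.5 TPM in WT_dark 4-6 and 3.43, 4.56 and 2.05 TPM in WT_blue, a log2 change of -3.64 ± 0.21 (SE, adjusted p = 2.58e-08). For RTFL21 and GRF7 the falls against WT_dark 4-6 were -3.21 and -3.15. IAA29, an auxin-response repressor that is high in elongating hypocotyls, fell (12.5 to 31.4 TPM in the 6 dark libraries, 1.34 to 3.30 TPM in blue light). PRE1, a helix-loop-helix protein that promotes elongation, fell (7.59 to 25.5 TPM in the 6 dark libraries, 0.92 to 2.40 TPM in blue light), and the expansin EXPA16 (3.79 to 36.2 TPM in the 6 dark libraries, 0.52 to 1.60 TPM in blue light). For the nicotianamine synthase gene NAS2, the zinc transporter gene ZIP3, the ammonium transporter gene AMT1;3 and the peptide gene CLE5 the fall was mostly between the dark sets. NAS2 was listed at 11.2, 11.99 and 13.2 TPM in WT_dark 1-3, 0.40, 0.54 and 0.46 TPM in WT_dark 4-6 and 0.26, 0 and 0.21 TPM in WT_blue. Against WT_dark 4-6 the difference was -0.35 for NAS2, -0.59 for ZIP3, -0.60 for AMT1;3 and -0.26 for CLE5. The other named falls were LTL1, a lipase gene, which fell by 3.13, and DRT100, a leucine-rich repeat protein gene, which fell by 3.43 on the log2 scale. Against WT_dark 4-6 these were -1.78 and -1.84. The spliceosomal RNA locus U1.6, 1 of several like copies that may share reads, was listed at 206, 163 and 219 TPM in WT_dark 1-3, 131, 65.7 and 84.4 TPM in WT_dark 4-6 and 63.0, 37.0 and 0 TPM in WT_blue. Its adjusted p was 0.0357, and its call was lost when any of the 3 libraries WT_dark 1-3 was left out.

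**Figure D1:**
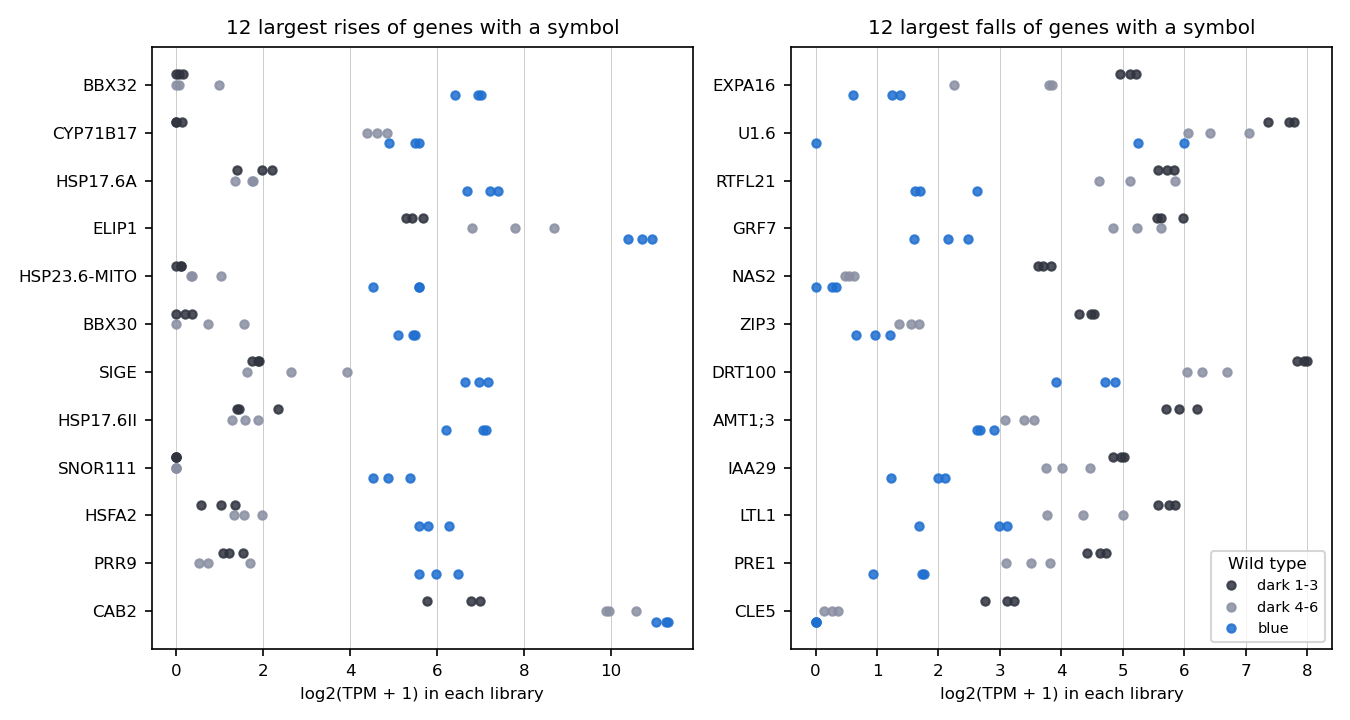
Log2(TPM + 1) on the horizontal axis of the 12 separated genes with a symbol that had the largest rises (left) and falls (right), with 1 point per library for WT_dark 1-3 (black), WT_dark 4-6 (grey) and WT_blue (blue). BBX32 and SIGE are low in both dark sets, whereas CYP71B17 in WT_dark 4-6 lies close to WT_blue, and NAS2 and CLE5 are near 0 in both WT_dark 4-6 and WT_blue.

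In terms of TPM gained or lost, the abundant genes give another view. ELIP1 and ELIP2, which encode early light-induced proteins that bind free chlorophyll, were among the 6 largest gains. The light-harvesting gene CAB2 was listed at 127, 109 and 53.6 TPM in WT_dark 1-3, 946, 992 and 1533 TPM in WT_dark 4-6 and 2569.6, 2489 and 2113 TPM in WT_blue. CAB2 was already high in WT_dark 4-6, and its log2 difference fell from 4.70 against WT_dark 1-3 to 1.08 against WT_dark 4-6. LHCA1, a light-harvesting gene of photosystem I, was listed at 173, 156 and 142 TPM in WT_dark 1-3, 338, 517 and 716 TPM in WT_dark 4-6 and 1237, 1441 and 1097 TPM in WT_blue, and its 2 differences were 2.99 and 1.32. CP5 was listed at 557, 601 and 598 TPM in WT_dark 1-3, 1400.5, 1136 and 1536 TPM in WT_dark 4-6 and 2088, 2001 and 1901 TPM in WT_blue. Among the losses, GASA4, a gibberellin-regulated gene, fell (2424 to 3352 TPM in the 6 dark libraries, 1111 to 1598 TPM in blue light). XTH15, a xyloglucan-modifying wall enzyme, fell (831 to 2354 TPM in the 6 dark libraries, 277 to 341 TPM in blue light), and so did DYL1, a dormancy-associated gene (1396 to 3313 TPM in the 6 dark libraries, 727 to 1216 TPM in blue light). These 3 genes were drawn from the separated loci. The log2 differences against WT_dark 1-3 and WT_dark 4-6 were -1.17 and -1.10 for GASA4, -2.69 and -1.95 for XTH15, and -1.65 and -0.79 for DYL1. PORA, the light-dependent protochlorophyllide reductase of dark-grown seedlings, was listed at 904, 883 and 1052 TPM in WT_dark 1-3, 710.4, 1777 and 1084 TPM in WT_dark 4-6 and 340.1, 295 and 158 TPM in WT_blue. PORA was drawn from the separated loci as well, and its log2 change was -1.90 ± 0.35 (SE, adjusted p = 0.00092). The proline-rich protein gene PRP4 fell by 2.25 on the log2 scale against WT_dark 1-3, with a difference of -0.72 against WT_dark 4-6.

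Heat shock factors and chaperones rose together, at nearly the same size against either dark set. Chaperones keep unfolding proteins from aggregating, and heat shock factors switch on their genes. Of the 27 tested members of this list, 23 rose, none fell and 19 were separated. The median log2 change was 1.70 against WT_dark 1-3 and 1.88 against WT_dark 4-6, beside -0.04 and -0.16 over all loci. With WT_dark 4-6 as reference, 22 members rose and none fell. The summed level of the list was 333 to 343 TPM over WT_dark 1-3, 328 to 348 TPM over WT_dark 4-6, and 1785.5 to 2273 TPM over WT_blue.

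HSFA2, the heat shock factor that amplifies and prolongs the heat response, was listed at 1.03, 1.54 and 0.47 TPM in WT_dark 1-3, 1.51, 2.93 and 1.95 TPM in WT_dark 4-6 and 54.5, 76.5 and 47.0 TPM in WT_blue. Its log2 change was 4.91 ± 0.24 (SE, adjusted p = 1.02e-08), and the dark sets overlapped each other. DREB2A, a drought and heat regulator upstream of HSFA3, was listed at 3.46, 5.11 and 6.52 TPM in WT_dark 1-3, 4.68, 5.70 and 8.11 TPM in WT_dark 4-6 and 104, 95.0 and 48.9 TPM in WT_blue. MBF1C, a coactivator in heat tolerance, was listed at 32.3, 22.3 and 27.0 TPM in WT_dark 1-3, 37.7, 41.5 and 47.1 TPM in WT_dark 4-6 and 307, 364 and 326 TPM in WT_blue. All 3 regulators were separated. The small heat shock proteins had the largest changes of the list. HSP17.6A was listed at 3.59, 2.89 and 1.64 TPM in WT_dark 1-3, 2.32, 1.55 and 2.41 TPM in WT_dark 4-6 and 102, 168 and 147 TPM in WT_blue. HSP17.6II was listed at 4.02, 1.63 and 1.73 TPM in WT_dark 1-3, 2.00, 2.70 and 1.41 TPM in WT_dark 4-6 and 72.6, 132 and 138 TPM in WT_blue. Their log2 changes were 5.25 and 5.07, and the dark sets overlapped in both. HSP23.6-MITO, of mitochondria, rose (0 to 1.05 TPM in the 6 dark libraries, 21.9 to 47.4 TPM in blue light), and HSP21, of chloroplasts, (0 to 0.86 TPM in the 6 dark libraries, 4.29 to 11.1 TPM in blue light). The rise covered small heat shock proteins of the cytosol, mitochondria, chloroplast and, with ATHSP22.0, the endoplasmic reticulum. ATHSP22.0 rose by 3.00 ± 0.49 (SE).

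The large chaperones rose from higher levels. HSP70 was listed at 43.7, 41.8 and 41.0 TPM in WT_dark 1-3, 29.9, 31.6 and 30.2 TPM in WT_dark 4-6 and 317, 409 and 358 TPM in WT_blue, with a log2 change of 3.06 ± 0.17 (SE, adjusted p = 2.28e-08). HSP101, the disaggregase of heat tolerance, was listed at 6.95, 6.84 and 5.97 TPM in WT_dark 1-3, 5.91, 8.96 and 7.34 TPM in WT_dark 4-6 and 80.9, 102 and 59.4 TPM in WT_blue. HSP90.1 rose (11.3 to 19.6 TPM in the 6 dark libraries, 115 to 186 TPM in blue light). For HSP70 and HSP90.1 the WT_dark 4-6 libraries were the lower dark set, so their difference against that set, 3.51 and 3.38, was the larger one. Of the class A1 factors, which are present without stress and start the heat response, HSF3 rose by 0.53 (adjusted p = 0.00667). HSF1 had 0.16 (adjusted p = 0.445) and HSFA1D -0.38 (adjusted p = 0.0663). HSFA8 and AT-HSFA7B were the other members that did not pass the test, with 0.22 and 0.19. HSFC1, ROF1, HSF3 and HSF4 passed it with rises under 2-fold, of 0.47 to 0.96. APX2, a heat- and light-inducible ascorbate peroxidase, was near 0 in darkness and at 1.23, 2.5 and 2.58 TPM in WT_blue.

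**Figure D2:**
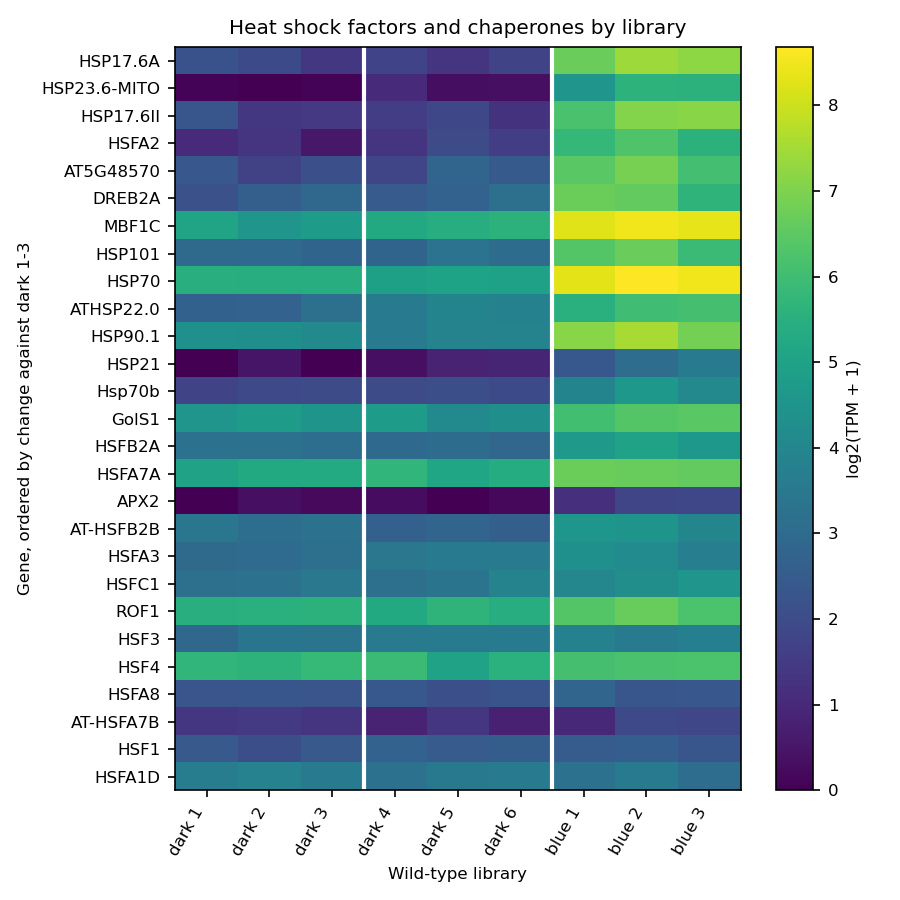
Log2(TPM + 1) as colour for the 27 tested heat shock factors and chaperones (rows, ordered by change against WT_dark 1-3) in the 9 wild-type libraries (columns). The 3 blue-light columns are brighter than all 6 dark columns in the upper 19 rows, and the 4 rows that did not pass the test are the lowest ones.

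Chaperones were also grouped by their annotated product names. Among product families with at least 10 tested members, ranked by their share of separated loci, the HSP20-like chaperones came first for rises. Of 26 members, 10 were separated higher, which is 38.5% beside 5.61% of all loci, and none was separated lower. In this family 14 were called higher and 6 lower, and the median was 0.54 against WT_dark 1-3 and 0.23 against WT_dark 4-6. AT1G54050 rose (1.44 to 4.08 TPM in the 6 dark libraries, 131 to 178 TPM in blue light). AT1G59860 rose (2.08 to 3.77 TPM in the 6 dark libraries, 148 to 197 TPM in blue light), and AT1G07400 did as well (2.39 to 6.90 TPM in the 6 dark libraries, 134 to 238 TPM in blue light). The family ranking used the same values, so it is a description. The next families had 3 of 10 aldolases, 3 of 10 thioesterases, 2 of 10 zinc knuckle proteins and 3 of 16 remorins.

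Promoters of separated members of the heat shock list were read for the heat shock element, 3 alternating copies of GAA and its reverse complement that heat shock factors bind. The search was for GAA, TTC and GAA in a row, each parted from the next by any 2 bases, on both strands in the 250 bases before the gene start, with starts and sequence from RefSeq TAIR10.1. It was found in 4 of the 19 separated members, in 1.45% of all 1038 separated higher protein-coding loci, and in 0.418% of the 18913 tested protein-coding loci with a promoter. The 4 promoters follow 5′ to 3′ in the direction of the gene, with matches in capitals. They are shown because their genes rose by 1.47 to 4.91 on the log2 scale.
HSFA2: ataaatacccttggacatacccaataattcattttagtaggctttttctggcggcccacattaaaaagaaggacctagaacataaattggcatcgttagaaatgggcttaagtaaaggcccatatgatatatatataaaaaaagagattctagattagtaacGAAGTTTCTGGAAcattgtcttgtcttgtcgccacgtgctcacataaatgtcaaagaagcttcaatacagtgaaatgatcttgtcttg
DREB2A: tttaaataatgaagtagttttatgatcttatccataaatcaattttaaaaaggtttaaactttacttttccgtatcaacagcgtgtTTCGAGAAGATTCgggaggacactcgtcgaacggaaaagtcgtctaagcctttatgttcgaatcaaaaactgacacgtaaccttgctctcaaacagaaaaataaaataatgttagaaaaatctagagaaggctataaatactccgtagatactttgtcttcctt
GolS1: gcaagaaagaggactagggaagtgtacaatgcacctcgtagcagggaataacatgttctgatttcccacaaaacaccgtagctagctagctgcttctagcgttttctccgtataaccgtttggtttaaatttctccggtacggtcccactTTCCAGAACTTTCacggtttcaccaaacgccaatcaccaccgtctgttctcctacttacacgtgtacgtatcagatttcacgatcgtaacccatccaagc
HSFA7A: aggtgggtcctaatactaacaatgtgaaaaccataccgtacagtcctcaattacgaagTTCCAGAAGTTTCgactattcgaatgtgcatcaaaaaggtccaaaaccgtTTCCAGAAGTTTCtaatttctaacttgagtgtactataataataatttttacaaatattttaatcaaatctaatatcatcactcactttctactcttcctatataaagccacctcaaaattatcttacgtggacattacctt
The HSFA2 promoter lies at chr2:11135374-11135623, plus strand, and its match begins 88 bases before the gene start. The DREB2A promoter lies at chr5:1601955-1602204, plus strand, with the match 164 bases before the gene start. GolS1 makes galactinol, an osmoprotectant precursor. Its promoter lies at chr2:19370479-19370728, minus strand, with the match 100 bases before the gene start. The HSFA7A promoter, at chr3:19264891-19265140, plus strand, holds 2 matches, 192 and 142 bases before the gene start. GolS1 was listed at 21.9, 26.3 and 21.4 TPM in WT_dark 1-3, 26.6, 16.6 and 18.8 TPM in WT_dark 4-6 and 65.1, 80.7 and 87.4 TPM in WT_blue. HSFA7A was listed at 31.3, 37.8 and 38.8 TPM in WT_dark 1-3, 51.1, 33.1 and 40.8 TPM in WT_dark 4-6 and 106, 99.8 and 96.3 TPM in WT_blue. Both genes were taken from the separated members.

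Genes known to answer singlet oxygen and other reactive oxygen species also rose against both dark sets. Of 17 tested members, 12 rose, 1 fell and 11 were separated higher. The median log2 change was 1.84 against WT_dark 1-3 and 2.06 against WT_dark 4-6. Against WT_dark 4-6, 13 rose and none fell. The summed level was 327 to 356 TPM over WT_dark 1-3, 198 to 282 TPM over WT_dark 4-6, and 869 to 975 TPM over WT_blue.

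WRKY40, a transcription factor of stress and chloroplast signals, was listed at 2.81, 3.54 and 3.17 TPM in WT_dark 1-3, 3.29, 3.90 and 4.02 TPM in WT_dark 4-6 and 63.4, 68.8 and 58.7 TPM in WT_blue, with a log2 change of 3.95 ± 0.37 (SE, adjusted p = 6.6e-06). STZ, also named ZAT10, a zinc-finger repressor induced by high light, was listed at 3.32, 2.89 and 3.56 TPM in WT_dark 1-3, 5.15, 3.00 and 5.43 TPM in WT_dark 4-6 and 47.0, 51.5 and 44.7 TPM in WT_blue. ERF6, an ethylene response factor of oxidative stress, was listed at 10.03, 9.59 and 10.7 TPM in WT_dark 1-3, 7.27, 7.86 and 6.46 TPM in WT_dark 4-6 and 95.9, 98.3 and 105 TPM in WT_blue. In all 3 genes the spread within each group was small beside the gap between dark and blue light. CML37 and CML38, calmodulin-like calcium sensors, rose (0.26 to 1.43 TPM in the 6 dark libraries, 12.1 to 15.2 TPM in blue light) and (0.38 to 5.02 TPM in the 6 dark libraries, 14.2 to 22.03 TPM in blue light), and ERF5 rose by 2.86. RHL41, also named ZAT12, was listed at 26.7, 28.5 and 25.9 TPM in WT_dark 1-3, 8.41, 8.21 and 9.67 TPM in WT_dark 4-6 and 123, 120.1 and 95.7 TPM in WT_blue. The kinase genes AGC2-1, also named OXI1, and MKK9 rose by 1.24 and 1.17. AOX1A, the alternative oxidase of mitochondria, had 43.9, 80.2 and 77.9 TPM in WT_blue and an adjusted p of 0.0556. NDB2, a mitochondrial NADH dehydrogenase, was the member that fell, by 1.27, and it was 0.37 against WT_dark 4-6.

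Photolyases and light-stress proteins rose against WT_dark 1-3 in 24 of 26 tested members, none fell and 12 were separated. The median log2 change was 1.41 against WT_dark 1-3 and 0.51 against WT_dark 4-6, and 13 members rose with WT_dark 4-6 as reference. The summed level was 2749 to 2888 TPM over WT_dark 1-3, 3688 to 5362 TPM over WT_dark 4-6, and 7191 to 9937 TPM over WT_blue. ELIP1 was listed at 50.2, 38.1 and 41.6 TPM in WT_dark 1-3, 110.3, 221 and 416 TPM in WT_dark 4-6 and 1701, 1978 and 1353 TPM in WT_blue. WT_dark 4-6 lay above WT_dark 1-3 in ELIP1, and all dark libraries lay below WT_blue. The log2 change was 5.24 against WT_dark 1-3 and 2.93 against WT_dark 4-6. ELIP2 was listed at 131, 73.2 and 98.9 TPM in WT_dark 1-3, 140.0, 292 and 469 TPM in WT_dark 4-6 and 1580.3, 1794 and 1028 TPM in WT_blue. CRY3, a photolyase-like cryptochrome of the DASH type that repairs single-stranded DNA in organelles, was listed at 8.22, 6.35 and 8.12 TPM in WT_dark 1-3, 16.8, 19.6 and 30.5 TPM in WT_dark 4-6 and 89.5, 94.6 and 53.1 TPM in WT_blue.

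Within this list the ascorbate and xanthophyll genes rose as well. VTC2, the enzyme of the first committed step of ascorbate synthesis, was listed at 103, 104 and 103 TPM in WT_dark 1-3, 99.1, 122 and 208 TPM in WT_dark 4-6 and 672, 788 and 386 TPM in WT_blue, with a log2 change of 2.5 ± 0.22 (SE, adjusted p = 1.54e-06). Its near copy VTC5 rose (23.63 to 57.6 TPM in the 6 dark libraries, 90.5 to 115 TPM in blue light). NPQ1, which makes zeaxanthin from violaxanthin, rose (14.4 to 44.1 TPM in the 6 dark libraries, 48.4 to 69.5 TPM in blue light), and ABA1, which runs the reverse step, (16.3 to 26.7 TPM in the 6 dark libraries, 57.3 to 82.7 TPM in blue light). The one-helix protein gene OHP rose by 2.17, and FTSH8, a protease subunit that removes damaged photosystem II protein, by 1.89. Against WT_dark 4-6 these differences were 0.80 and 1.68. CSD2, a chloroplast superoxide dismutase, shows the other pattern: 87.8, 63.7 and 62.9 TPM in WT_dark 1-3, 299, 285 and 259 TPM in WT_dark 4-6 and 296, 324 and 208 TPM in WT_blue. PHR1, the photolyase of cyclobutane dimers, rose by 1.74 against WT_dark 1-3 and differed by 0.45 from WT_dark 4-6. TAPX and FSD1 did not pass the test, with 0.34 and 0.19.

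The G-box, CACGTG, is bound by light-signalling bZIP and bHLH factors such as HY5. It was found in the 250 bases before the gene start in 4 of the 12 separated light-stress genes, in 11.3% of the separated higher loci, in 6.29% of the separated lower loci and in 7.28% of all tested promoters. The promoter of ELIP1, at chr3:8085670-8085919, minus strand, is shown as the example with the largest rise in this list, with the G-box in capitals.
ELIP1: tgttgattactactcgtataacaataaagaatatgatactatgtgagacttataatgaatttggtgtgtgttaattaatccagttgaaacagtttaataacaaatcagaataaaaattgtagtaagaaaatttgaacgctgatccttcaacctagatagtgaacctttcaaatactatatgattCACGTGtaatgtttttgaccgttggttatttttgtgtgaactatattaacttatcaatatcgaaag
The match begins 66 bases before the gene start.

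Other motifs were counted in the same way, each on both strands. CCACGT, which overlaps the G-box where that is preceded by C, was found in 16.5% of the separated higher loci, 7.84% of the separated lower ones and 8.95% of all. GATAAG, the I-box, stood in 15.5%, 12.3% and 12.6%, and TTGACC, a W-box bound by WRKY factors, in 15.0%, 11.7% and 12.1%. The evening element AAAATATCT stood in 3.47%, 2.29% and 2.46%, and the auxin response element TGTCTC in 12.1%, 11% and 10.5%. CATGCA, the core of the RY element, was the motif with its higher share among the falls, with 7.32% of the separated higher, 12% of the separated lower and 7.43% of all. These shares are descriptions with no test.

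**Figure D3:**
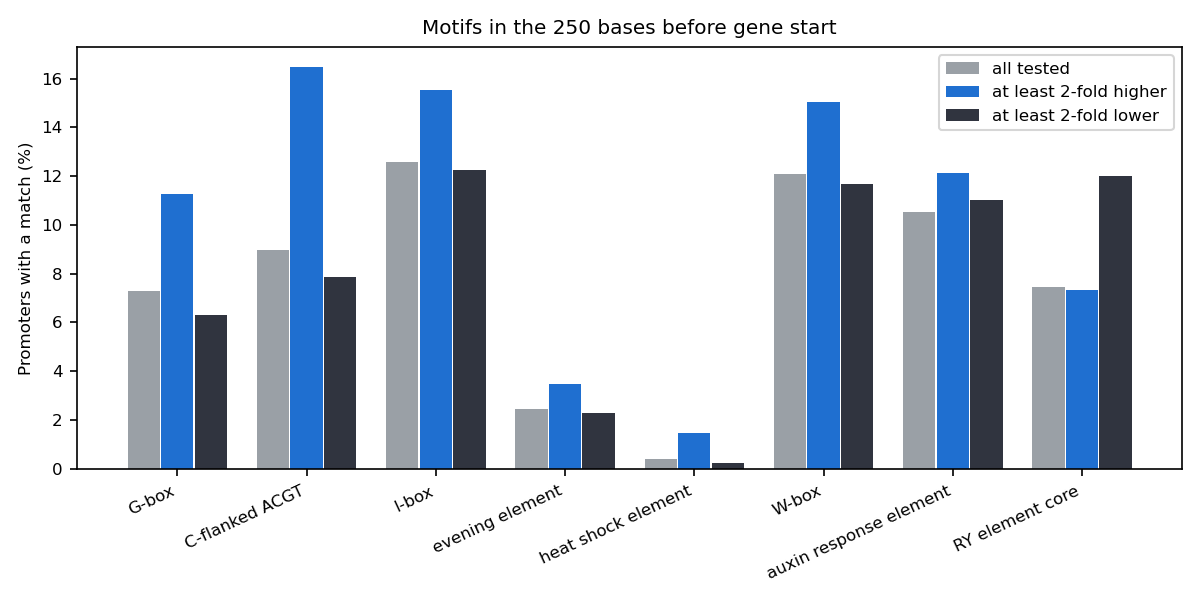
Share of promoters (250 bases before the gene start, percent on the vertical axis) with a match to each of 8 motifs, for all 18913 tested protein-coding loci (grey), the 1038 separated higher (blue) and the 1224 separated lower loci (black). The blue bar for the C-flanked ACGT motif reaches 16.5% beside 8.95% for all loci, and the black bar for the RY core 12% beside 7.43%.

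Of 15 tested receptors and receptor inhibitors, 5 rose and 5 fell, shares near the 28.7% and 32.9% of all loci, and 4 were separated higher and 2 lower. The counts were 4 and 2 with WT_dark 4-6 as reference. Of 21 entries written for this list, 15 were matched to a locus. The cryptochrome partners BIC1, BIC2 and PPK1 to PPK4 were not matched and are not in these counts. The rises included RUP1 and RUP2, which return the UV-B receptor UVR8 to its inactive form. RUP2 was listed at 8.42, 6.32 and 5.89 TPM in WT_dark 1-3, 7.85, 6.70 and 17.5 TPM in WT_dark 4-6 and 77.7, 93.1 and 45.8 TPM in WT_blue, with a log2 change of 3.17 ± 0.23 (SE, adjusted p = 3.39e-07). RUP1 was listed at 8.32, 7.86 and 9.21 TPM in WT_dark 1-3, 6.82, 12.7 and 17.3 TPM in WT_dark 4-6 and 78.1, 81.9 and 45.9 TPM in WT_blue. Both genes were lowest of the blue-light libraries in WT_blue 3 and highest of the dark ones in WT_dark 6. RPT2, a phototropin partner in chloroplast and growth movements, was listed at 106, 103 and 108 TPM in WT_dark 1-3, 125, 154 and 234 TPM in WT_dark 4-6 and 425, 502 and 442 TPM in WT_blue. PKS1, a second phototropin partner, rose (9.17 to 16.2 TPM in the 6 dark libraries, 27.3 to 31.6 TPM in blue light).

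The phototropin gene PHOT1 fell, and was listed at 136, 140.5 and 149 TPM in WT_dark 1-3, 63.3, 106 and 85.2 TPM in WT_dark 4-6 and 37.9, 35.4 and 19.6 TPM in WT_blue. Its log2 change was -2.21 ± 0.20 (SE, adjusted p = 2.05e-06), and -1.45 against WT_dark 4-6. PHOT2, the phototropin of strong light, was higher by 1.23 against WT_dark 1-3, with 3 unequal blue-light values of 61.8, 69.2 and 23.9 TPM, and its difference was 0.42 against WT_dark 4-6. The cryptochrome genes moved less. CRY1 changed by 0.16 (adjusted p = 0.322) and CRY2 fell by 0.32 (adjusted p = 0.0224), with -0.03 against WT_dark 4-6. The LOV-domain proteins ZTL and FKF1 did not pass the test, with 0.09 and 0.06.

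Among the 14 tested COP1/SPA and DET1 genes, the SPA genes split. SPA3 was listed at 8.24, 7.09 and 9.48 TPM in WT_dark 1-3, 17.01, 18.6 and 32.1 TPM in WT_dark 4-6 and 87.8, 88.9 and 47.3 TPM in WT_blue. SPA1 was listed at 12.03, 10.3 and 12.2 TPM in WT_dark 1-3, 8.63, 8.14 and 18.2 TPM in WT_dark 4-6 and 39.1, 39.9 and 31.8 TPM in WT_blue. SPA4 was listed at 4.17, 3.62 and 4.51 TPM in WT_dark 1-3, 6.11, 5.64 and 8.36 TPM in WT_dark 4-6 and 20.5, 21.5 and 9.20 TPM in WT_blue. These 3 partners of COP1 rose by 2.98, 1.60 and 1.74 on the log2 scale and were separated, SPA4 by the smallest gap, between WT_dark 6 and WT_blue 3. SPA2, the member known to act mainly in darkness, went the other way, with 12.6, 13.2 and 26.8 TPM in WT_dark 1-3, 7.34, 4.31 and 10.1 TPM in WT_dark 4-6 and 10.8, 9.04 and 6.11 TPM in WT_blue. Its change was -0.89 ± 0.27 (SE, adjusted p = 0.0118) against the first set and 0.26 against the second, so the fall was not seen against WT_dark 4-6. COP1 itself rose by 0.71, and DDB1A, an adaptor of CUL4 ligases, fell by 1.09, and against WT_dark 4-6 they differed by 0.37 and -0.37. Over the list, 5 rose, 3 fell, and the median was 0.07, and with WT_dark 4-6 as reference 3 rose, 3 fell and the median was -0.04. The shares of all loci were 28.7% higher and 32.9% lower against WT_dark 1-3, and 9.08% and 20.1% with WT_dark 4-6 as reference.

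The result for photosynthesis genes depended on the dark set. Of 29 tested nuclear genes for photosystem, cytochrome b6f and ATP synthase subunits, 26 were higher than WT_dark 1-3 and none lower, with a median of 1.04. Against WT_dark 4-6 the median was 0.03, and limma called none in either direction (at an unadjusted p under 0.05, 0 were higher and 0 lower). Only the ferredoxin gene FED_A among the 29 was separated, at 689.5, 594 and 706 TPM in WT_dark 1-3, 1063, 1692 and 1592 TPM in WT_dark 4-6 and 1772, 1852 and 1698 TPM in WT_blue. Its lowest blue-light value was just above its highest dark one, and it was not called with WT_dark 4-6 as reference. The summed level was 14333 to 15908 TPM over WT_dark 1-3, 21497 to 36553 TPM over WT_dark 4-6, and 25918 to 34038 TPM over WT_blue. PSAK, of photosystem I, rose by 2.1 against WT_dark 1-3 and differed by 0.19 from WT_dark 4-6.

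For the plastid RNA polymerase and its regulators, 16 of 22 tested members rose against WT_dark 1-3 and none fell, with a median of 0.97, and the median was -0.06 against WT_dark 4-6, where 5 rose and 1 fell. The 3 separated members were SIGE, CGA1 and GLK2. CGA1, a GATA factor of chloroplast growth, was listed at 1.56, 1.58 and 2.05 TPM in WT_dark 1-3, 2.73, 2.99 and 5.34 TPM in WT_dark 4-6 and 19.8, 37.5 and 20.7 TPM in WT_blue. GLK2, an activator of photosynthesis genes, was listed at 59.2, 60.3 and 56.2 TPM in WT_dark 1-3, 57.3, 104 and 142 TPM in WT_dark 4-6 and 218, 237 and 166 TPM in WT_blue. CGA1 and GLK2 rose by 3.25 and 1.79 against the first set and differed by 2.51 and 1.11 from the second. GPRI1, also named GLK1, the relative of GLK2, did not pass the test, with 0.09. The polymerase-associated proteins PTAC7, PTAC14 and PTAC12 rose by 1.08, 1.12 and 0.69 against WT_dark 1-3, and differed by 0.02, -0.34 and -0.50 from WT_dark 4-6.

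Calvin cycle genes rose in 13 of 16 tested members and fell in 1, with a median of 0.84 against WT_dark 1-3 and -0.01 against WT_dark 4-6, where 3 rose and 1 fell. The separated members were CP12-2, CA1 and FBA1. CP12-2, a redox switch that holds 2 enzymes of the cycle inactive in darkness, was listed at 53.1, 47.8 and 40.9 TPM in WT_dark 1-3, 85.7, 97.1 and 137 TPM in WT_dark 4-6 and 459, 489.6 and 359.6 TPM in WT_blue. Its log2 change was 3.17 ± 0.15 (SE, adjusted p = 6.81e-09), and 2.04 against WT_dark 4-6. FBA1, a plastid aldolase, rose (84.1 to 198 TPM in the 6 dark libraries, 299 to 480.1 TPM in blue light). CA1 and CA2 are both carbonic anhydrases. CA1, of the chloroplast, rose by 2.31 and differed by 0.60 from WT_dark 4-6, whereas CA2 fell by 0.67 against WT_dark 1-3 and differed by -0.02 from WT_dark 4-6.

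Photorespiration recycles the product of Rubisco's oxygenase reaction through chloroplast, peroxisome and mitochondrion. Of 18 tested genes, 15 rose, 2 fell and 5 were separated higher, with a median of 1.15 against WT_dark 1-3 and 0.36 against WT_dark 4-6. With WT_dark 4-6 as reference 7 rose and 2 fell. GLDP1, a glycine decarboxylase subunit, was listed at 88.5, 73.1 and 79.1 TPM in WT_dark 1-3, 61.3, 129.5 and 158 TPM in WT_dark 4-6 and 381, 459 and 279 TPM in WT_blue. The peroxisomal enzyme gene HPR was listed at 86.3, 90.4 and 70.8 TPM in WT_dark 1-3, 104, 159.9 and 174 TPM in WT_dark 4-6 and 352, 372 and 263 TPM in WT_blue. GGT1, a peroxisomal aminotransferase, was listed at 195, 201 and 193 TPM in WT_dark 1-3, 309, 311 and 406 TPM in WT_dark 4-6 and 804, 856 and 592 TPM in WT_blue. The catalase gene CAT2, which removes the hydrogen peroxide of this path, was listed at 203, 229 and 194 TPM in WT_dark 1-3, 208, 254 and 259.8 TPM in WT_dark 4-6 and 553, 650.0 and 505 TPM in WT_blue. These 4 genes and GOX1 were the separated ones, with differences of 0.85 to 1.75 against WT_dark 4-6. The catalase genes differed: CAT3 rose by 0.48 and CAT1 fell by 0.82, with 0.16 and -0.55 against WT_dark 4-6.

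In the list of storage lipid use and the glyoxylate cycle, 3 of 21 tested members rose and 11 fell, with a median of -0.38 against WT_dark 1-3 and -0.27 against WT_dark 4-6, where 1 rose and 6 fell. Over all loci 28.7% rose and 32.9% fell against WT_dark 1-3, and 9.08% and 20.1% with WT_dark 4-6 as reference. PCK1, which starts the making of sugar from oil reserves, was listed at 525.5, 596 and 523 TPM in WT_dark 1-3, 363, 380.5 and 412 TPM in WT_dark 4-6 and 213, 198 and 218 TPM in WT_blue. PKT3, the main thiolase of beta-oxidation, fell by 1.1, and CSY2, a peroxisomal citrate synthase, by 1.00. Against WT_dark 4-6 these were -0.38 and -0.27, and CSY2 was no longer called. The glyoxylate cycle enzymes ICL and MLS did not pass the test, with 0.46 and -0.52, and were -1.34 and -1.20 against WT_dark 4-6.

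In nitrogen assimilation, 4 of 19 tested members rose and 9 fell, and 3 were separated lower. The median was -0.37 against WT_dark 1-3 and -0.30 against WT_dark 4-6, where 2 rose and 6 fell. These counts stand beside 28.7% higher and 32.9% lower of all loci against WT_dark 1-3, and 9.08% and 20.1% for WT_dark 4-6. ASN1, the asparagine synthetase of darkness and sugar starvation, was listed at 195, 261 and 175 TPM in WT_dark 1-3, 42.8, 83.5 and 48.7 TPM in WT_dark 4-6 and 40.0, 20.2 and 30.3 TPM in WT_blue. Most of this fall lay between the dark sets: the log2 difference was -2.79 against WT_dark 1-3 and -0.92 against WT_dark 4-6. The nitrate transporter gene NRT1.1 fell (125 to 297 TPM in the 6 dark libraries, 78.9 to 100.2 TPM in blue light). Its log2 difference was -1.65 against WT_dark 1-3 and -0.74 against WT_dark 4-6. GLT1, a glutamate synthase, fell by 1.15, with -0.92 against WT_dark 4-6. The nitrate reductase gene NIA2 rose by 0.74, with 0.56 against WT_dark 4-6, and NIA1 did not pass the test, with 0.07.

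In the gibberellin list, 5 of 23 tested members rose and 12 fell, 2 were separated higher and 5 lower, with a median of -0.70 against WT_dark 1-3 and -0.25 against WT_dark 4-6. The counts were 4 and 8 with WT_dark 4-6 as reference. ATGA2OX1, which breaks down active gibberellin, was listed at 0.35, 0.36 and 0.16 TPM in WT_dark 1-3, 0, 0.31 and 0.78 TPM in WT_dark 4-6 and 4.53, 5.05 and 4.69 TPM in WT_blue, and GA2OX2, of the same activity, rose by 1.03, with 1.60 against WT_dark 4-6. The synthesis gene GA20OX1 was listed at 3.74, 3.12 and 3.38 TPM in WT_dark 1-3, 3.08, 7.03 and 6.98 TPM in WT_dark 4-6 and 0.32, 1.07 and 1.66 TPM in WT_blue, and GA20OX2 fell by 1.00, with -1.54 against WT_dark 4-6. Both breakdown genes were above, and both synthesis genes below, all 6 dark libraries, but they were picked from the list after their values were seen. The synthesis gene GA3OX2, below the level for testing, went the other way. It had 0.04 to 0.37 TPM in the 6 dark libraries and 0.45, 1.55 and 2.19 TPM in WT_blue. The DELLA repressor gene GAI was listed at 32.4, 37.9 and 36.2 TPM in WT_dark 1-3, 16.8, 23.7 and 17.7 TPM in WT_dark 4-6 and 6.82, 6.86 and 5.75 TPM in WT_blue, a log2 change of -2.29 ± 0.13 (SE, adjusted p = 2.05e-08). RGL3, a second DELLA gene, fell by 1.35, and RGA1 by 0.70. Against WT_dark 4-6 the differences were -1.44 for GAI, -0.87 for RGL3 and 0.12 for RGA1.

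In the brassinosteroid list, 5 of 24 tested members rose and 14 fell, with 1 separated higher, DOGT1, and 4 lower. The median was -0.38 against WT_dark 1-3 and -0.27 against WT_dark 4-6, where 2 rose and 9 fell. DOGT1, a glucosyltransferase that inactivates brassinosteroids and also acts on a fungal toxin, was listed at 6.05, 7.56 and 6.25 TPM in WT_dark 1-3, 4.40, 6.34 and 12.2 TPM in WT_dark 4-6 and 148, 196 and 151 TPM in WT_blue. Its log2 change was 4.44 ± 0.15 (SE, adjusted p = 3.05e-10), and 4.35 against WT_dark 4-6. The sterol and brassinosteroid synthesis gene DWF1 was listed at 324, 331 and 312 TPM in WT_dark 1-3, 156, 212 and 187 TPM in WT_dark 4-6 and 122, 118 and 91.4 TPM in WT_blue. The receptor gene BRI1 was listed at 73.0, 66.7 and 71.4 TPM in WT_dark 1-3, 41.4, 42.0 and 42.3 TPM in WT_dark 4-6 and 32.3, 31.7 and 29.3 TPM in WT_blue. STE1, also named DWF7, of sterol synthesis, fell by 1.06, and IBH1, a growth-inhibiting helix-loop-helix protein, by 1.04. For BRI1, DWF1 and STE1 the dark sets lay apart, and the differences from WT_dark 4-6 were -0.42, -0.74 and -0.33, beside -0.92 for IBH1.

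Cytokinin response genes rose in 10 of 23 tested members and fell in 3 against WT_dark 1-3, with a median of 0.00. With WT_dark 4-6 as reference 4 rose and 5 fell, with a median of 0.06. ARR9, ARR6 and RR5, early response regulators, were separated higher, and ARR9 was listed at 28.2, 30.9 and 30.3 TPM in WT_dark 1-3, 75.0, 67.4 and 80.7 TPM in WT_dark 4-6 and 122, 134 and 150.3 TPM in WT_blue. LOG1, which releases active cytokinin, rose (6.48 to 9.92 TPM in the 6 dark libraries, 13.7 to 24.8 TPM in blue light). The breakdown enzyme gene CKX5 was the separated fall, at 25.9, 32.1 and 27.5 TPM in WT_dark 1-3, 27.1, 18.4 and 12.7 TPM in WT_dark 4-6 and 3.20, 3.81 and 4.41 TPM in WT_blue, a log2 change of -2.62 ± 0.13 (SE, adjusted p = 7.73e-09). Its dark values overlapped between the sets, and the difference from WT_dark 4-6 was -2.03.

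In the ethylene list, 4 of 22 tested members rose and 10 fell, with a median of -0.29 against WT_dark 1-3 and -0.18 against WT_dark 4-6, where 3 rose and 8 fell. HLS1, needed for the apical hook that dark-grown seedlings keep, was listed at 20.1, 25.3 and 25.9 TPM in WT_dark 1-3, 15.4, 10.4 and 14.5 TPM in WT_dark 4-6 and 5.09, 6.03 and 3.64 TPM in WT_blue. ACS5, of ethylene synthesis, was listed at 7.04, 8.79 and 6.01 TPM in WT_dark 1-3, 2.53, 2.93 and 2.63 TPM in WT_dark 4-6 and 0.61, 0.36 and 0.05 TPM in WT_blue, and ACS8 fell by 1.27, with -1.15 against WT_dark 4-6. EIN3, the main transcription factor of the pathway, fell by 1.27, with -0.44 against WT_dark 4-6. ERF1, which answers ethylene and jasmonate, rose (0.08 to 0.64 TPM in the 6 dark libraries, 2.63 to 3.96 TPM in blue light).

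Of 23 tested jasmonate genes, 5 were higher and 9 lower than WT_dark 1-3, beside 28.7% and 32.9% of all loci, with a median of -0.22. The balance turned with WT_dark 4-6 as reference, where 6 of 22 rose and 1 fell and the median was 0.10. TIFY7, also named JAZ9, a jasmonate repressor, was listed at 9.64, 8.93 and 9.38 TPM in WT_dark 1-3, 9.56, 8.65 and 15.7 TPM in WT_dark 4-6 and 52.0, 55.05 and 36.9 TPM in WT_blue, a log2 change of 2.23 ± 0.17 (SE, adjusted p = 3.33e-07). The allene oxide cyclase genes went in opposite directions, AOC1 (4.91 to 10.3 TPM in the 6 dark libraries, 17.1 to 22.2 TPM in blue light) and AOC4 (40.2 to 72.9 TPM in the 6 dark libraries, 24.8 to 29.2 TPM in blue light). Against WT_dark 1-3 and WT_dark 4-6 the differences were 1.62 and 1.07 for AOC1, and -1.35 and -0.63 for AOC4. In the karrikin and strigolactone list, 1 of 10 tested members rose and 3 fell against WT_dark 1-3, with a median of -0.21, and none was separated. This turned as well: with WT_dark 4-6 as reference 3 rose, none fell and the median was 0.21. KAI2, the karrikin receptor, was the rise against WT_dark 1-3, with 0.58 ± 0.11 (SE), and 0.54 against WT_dark 4-6.

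**Figure D4:**
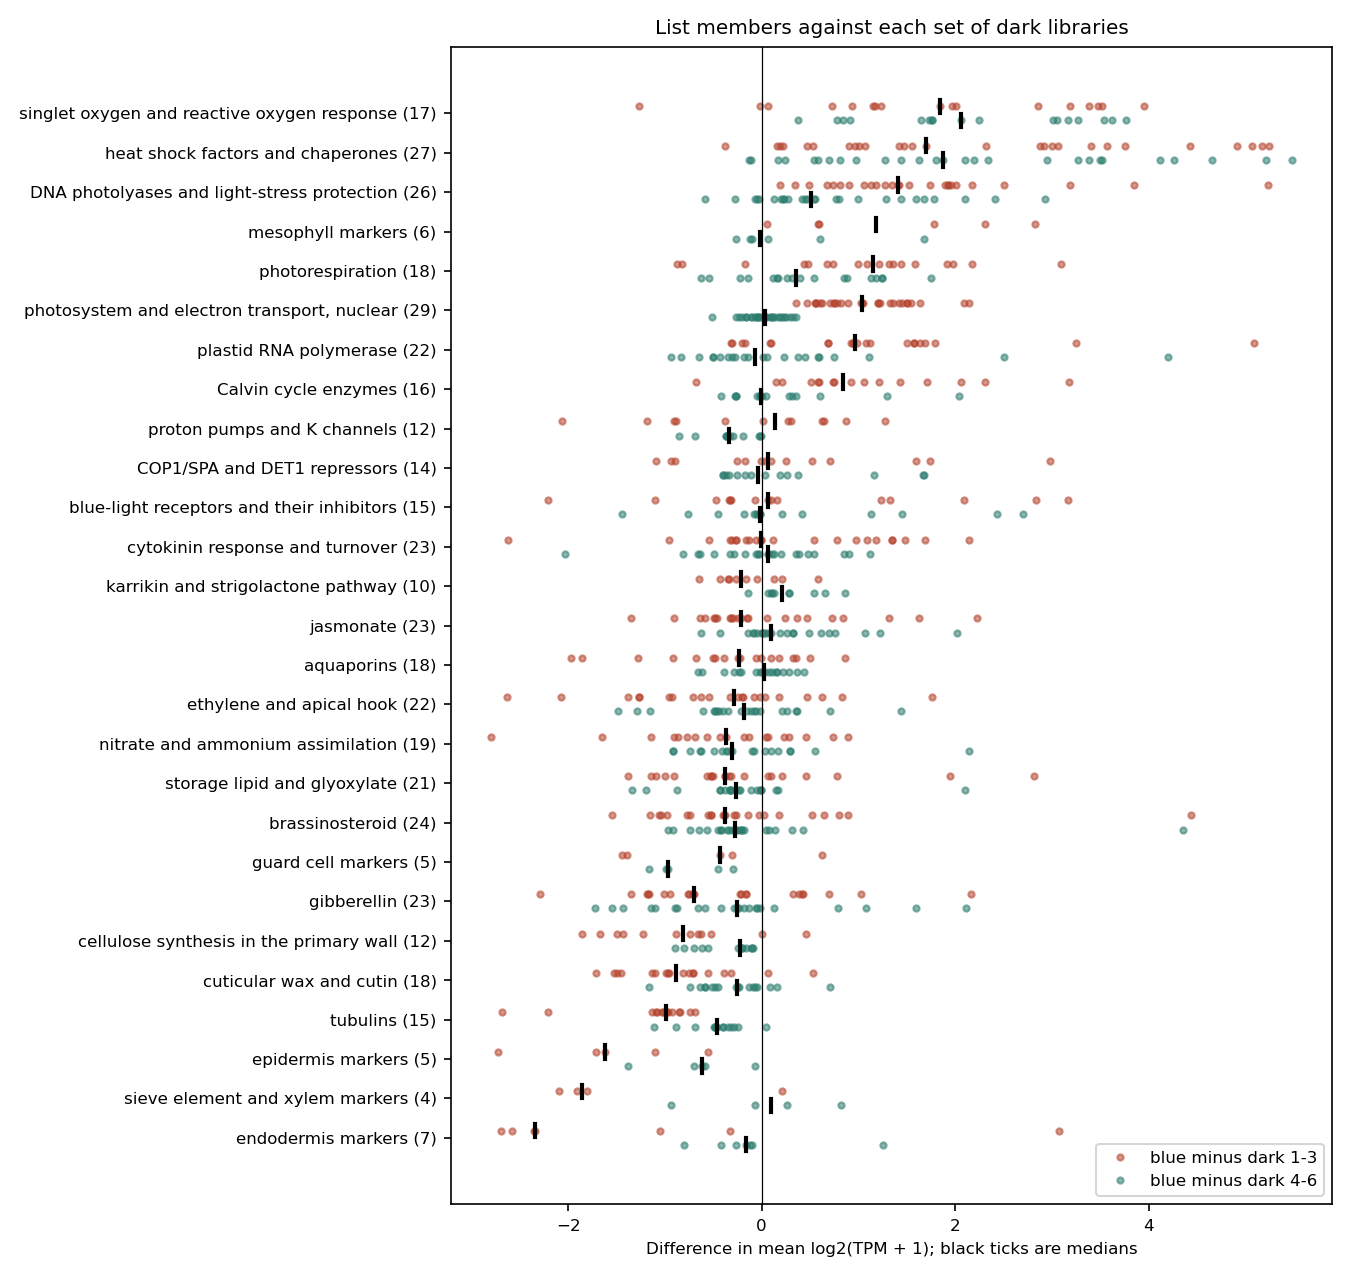
Difference in mean log2(TPM + 1) of the tested members of each list with at least 4 of them (rows, number tested in brackets) between WT_blue and WT_dark 1-3 (red) and between WT_blue and WT_dark 4-6 (green). Points are genes and black ticks medians. The median of the heat shock list is 1.70 and 1.88, whereas that of the nuclear photosystem genes is 1.04 and 0.03 and that of endodermis markers -2.34 and -0.16.

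All 15 tested tubulin genes fell, with log2 changes from -2.69 to -0.68 and a median of -0.99. Tubulins form the microtubules that guide cellulose deposition in elongating cells. Against WT_dark 4-6 the median was -0.46, and 13 of 15 fell and none rose. TUB1 was listed at 76.1, 69.1 and 72.1 TPM in WT_dark 1-3, 16.1, 42.1 and 19.2 TPM in WT_dark 4-6 and 11.4, 11.6 and 8.45 TPM in WT_blue. TUB8 was listed at 132, 126 and 128 TPM in WT_dark 1-3, 48.8, 52.9 and 51.1 TPM in WT_dark 4-6 and 27.0, 27.8 and 26.4 TPM in WT_blue, a log2 change of -2.21 ± 0.10 (SE, adjusted p = 3.34e-09). TUA5 and TUB6, further members, fell by 1.09 and 1.13, with -0.49 and -0.40 against WT_dark 4-6. The summed level of all tubulins was 4291 to 4385 TPM over WT_dark 1-3, 2645 to 3239 TPM over WT_dark 4-6, and 2027 to 2270.4 TPM over WT_blue. WT_dark 4-6 lay between WT_dark 1-3 and WT_blue in this sum. The 6 separated genes were TUA3, TUA4, TUA5, TUB6, TUB8 and TUB1.

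Genes of cellulose synthesis in the primary wall fell in 10 of 12 tested members and rose in 1, with a median of -0.81 against WT_dark 1-3 and -0.22 against WT_dark 4-6, where 5 fell and none rose. The cellulose synthase gene CEV1, also named CESA3, was listed at 169, 156 and 169.9 TPM in WT_dark 1-3, 86.4, 91.0 and 91.9 TPM in WT_dark 4-6 and 53.7, 56.4 and 43.6 TPM in WT_blue. CESA6, a second one, was listed at 114, 106 and 121 TPM in WT_dark 1-3, 68.4, 64.8 and 62.7 TPM in WT_dark 4-6 and 43.4, 42.2 and 34.1 TPM in WT_blue. CESA1, of the same primary wall complex, fell (107 to 186 TPM in the 6 dark libraries, 59.6 to 84.8 TPM in blue light). CSI1, which links the synthase to microtubules, was listed at 39.5, 39.2 and 44.2 TPM in WT_dark 1-3, 17.57, 21.5 and 23.0 TPM in WT_dark 4-6 and 12.9, 12.1 and 7.53 TPM in WT_blue. THE1, a receptor kinase that senses wall damage, fell (20.3 to 40.9 TPM in the 6 dark libraries, 12.3 to 15.7 TPM in blue light), by -1.43 against WT_dark 1-3 and -0.62 against WT_dark 4-6. CESA2 did not pass the test, with 0.00 ± 0.14 (SE).

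The proton pump gene HA2, also named AHA2, whose product acidifies the wall for growth, was listed at 613, 565 and 584 TPM in WT_dark 1-3, 266, 249 and 246 TPM in WT_dark 4-6 and 146, 128 and 148 TPM in WT_blue. Its log2 change was -2.06 ± 0.10 (SE, adjusted p = 7.4e-09), and -0.85 against WT_dark 4-6. HA1, the other abundant pump, fell by 0.90, and HA3 by 1.19, with -0.35 and -0.69 against WT_dark 4-6. The list of pumps and potassium channels had 5 of 12 higher and 5 lower, and all 12 differences from WT_dark 4-6 were below 0, with 3 that passed the test. Of 18 tested aquaporins, 2 rose and 7 fell against WT_dark 1-3, with a median of -0.23, and none rose and 2 fell with WT_dark 4-6 as reference, with a median of 0.02. Over all loci the falls were 32.9% and 20.1% against these references, and the rises 28.7% and 9.08%. The separated aquaporin was PIP3, at 1579, 1734 and 1594 TPM in WT_dark 1-3, 550.5, 871 and 701 TPM in WT_dark 4-6 and 460.3, 469 and 428 TPM in WT_blue. Of 18 tested wax and cutin genes, 1 rose and 16 fell against WT_dark 1-3, with 6 separated and a median of -0.88. With WT_dark 4-6 as reference 1 rose and 7 fell, with a median of -0.26. The elongase gene KCS10, also named FDH, was listed at 253, 254 and 270.1 TPM in WT_dark 1-3, 106, 120.5 and 128 TPM in WT_dark 4-6 and 89.5, 89.3 and 59.9 TPM in WT_blue, and GPAT8, of cutin synthesis, fell by 1.52. Wax genes CER2 and LACS1 fell by 1.49 and 1.46. Against WT_dark 4-6 the differences were -0.48, -0.63 and -1.16. Epidermis markers, whose cells make the cuticle, fell in 5 of 5, with summed levels of 1157 to 1230.1 TPM, 597 to 705 TPM and 412.5 to 487 TPM in WT_dark 1-3, WT_dark 4-6 and WT_blue. KCS10 is a member of both lists, so they are not separate sets of genes. The part of the epidermis markers in the wax result was not tested.

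**Figure D5:**
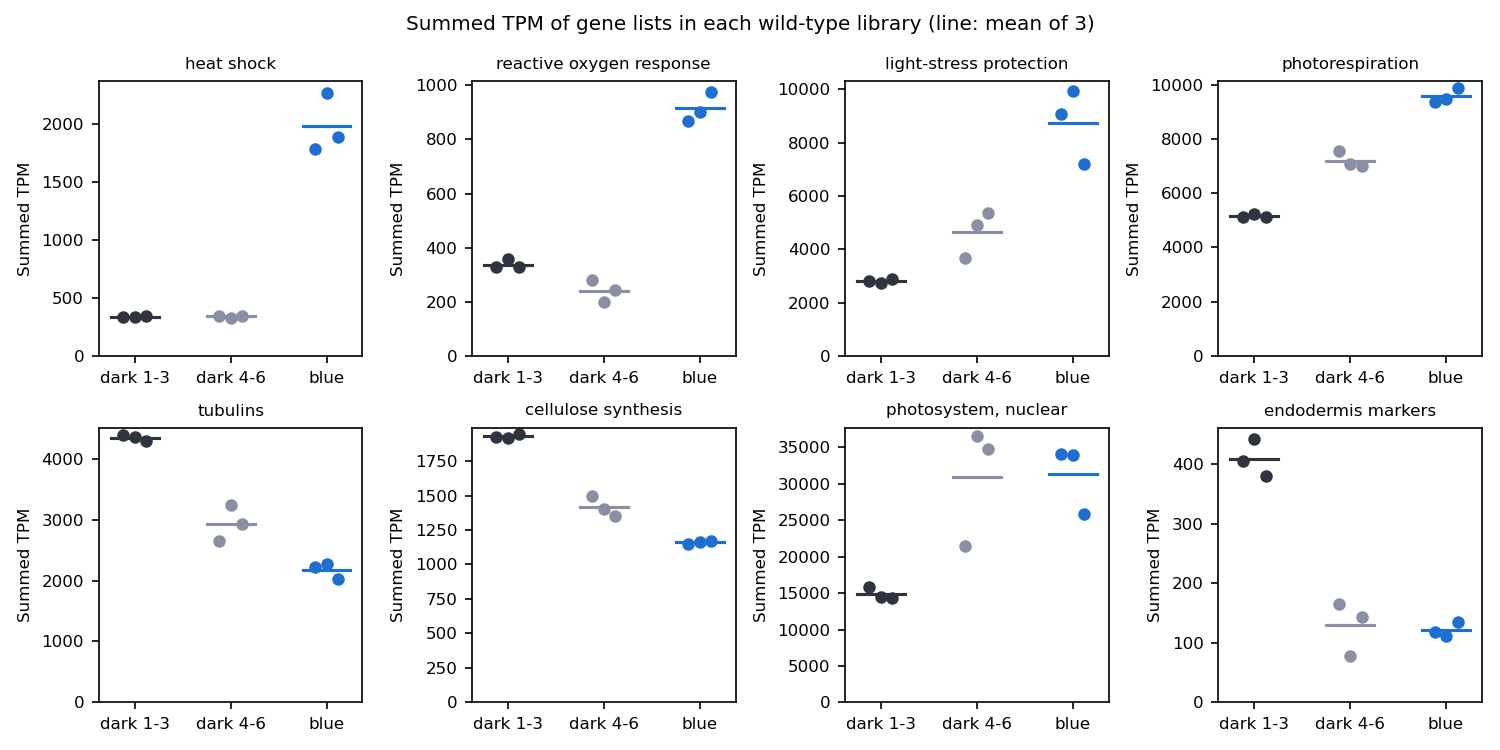
Summed TPM (vertical axis, from 0) of 8 gene lists in each library of WT_dark 1-3, WT_dark 4-6 and WT_blue, with the mean of each 3 as a line. The heat shock sum is 328 to 348 TPM in all 6 dark libraries and 1785.5 to 2273 TPM in WT_blue, whereas the endodermis sum of WT_blue, 111 to 135 TPM, lies within the range of WT_dark 4-6.

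By product name, 5 families had the highest shares of separated falls, to be read beside 6.30% of all loci and again as a description. Of 10 tested endomembrane protein 70 family members, 7 were separated lower, with a median of -1.38 against WT_dark 1-3 and -0.41 against WT_dark 4-6. AT1G14670 fell (37.2 to 107 TPM in the 6 dark libraries, 22.4 to 28.8 TPM in blue light), and EMP1 (23.9 to 65.5 TPM in the 6 dark libraries, 18.8 to 18.9 TPM in blue light). Against WT_dark 1-3 and WT_dark 4-6 they differed by -1.96 and -0.83 for AT1G14670, and by -1.71 and -0.41 for EMP1. Of 61 tested SAUR-like genes, small auxin-induced genes that promote elongation, 31 were separated lower and 3 higher, with a median of -1.38 against WT_dark 1-3 and -0.92 against WT_dark 4-6. SAUR22 fell (24.7 to 40.7 TPM in the 6 dark libraries, 2.21 to 4.31 TPM in blue light), and SAUR19 (27.2 to 39.1 TPM in the 6 dark libraries, 3.99 to 5.64 TPM in blue light). Both are members of a group of close copies whose reads may be shared. Of 15 members of 1 pectin methylesterase inhibitor annotation, 7 were separated lower, and of 21 of another, 7. Much of this lay between the dark sets, as their medians were -1.50 and -1.31 against WT_dark 1-3 and -0.30 and -0.21 against WT_dark 4-6. AT4G25260 of the latter fell (44.6 to 130.2 TPM in the 6 dark libraries, 10 to 19.0 TPM in blue light). Of 22 leucine-rich receptor-like kinases, 10 were separated lower, among them BRI1, CLV1 and BAM2, with medians of -1.09 and -0.47.

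Markers of cell types moved in several lists, and in bulk samples fewer cells of a type and less RNA per cell cannot be told apart. Of 7 tested endodermis markers, 6 fell, with a median of -2.34 against WT_dark 1-3 and -0.16 against WT_dark 4-6, and none was separated. CASP1 was listed at 170.5, 179.8 and 150.1 TPM in WT_dark 1-3, 46.6, 21.2 and 47.2 TPM in WT_dark 4-6 and 33.6, 27.0 and 36.4 TPM in WT_blue. ESB1, a Casparian strip protein, was the marker that rose, by 3.07 against WT_dark 1-3, and its difference from WT_dark 4-6 was 1.25. Of 7 root hair markers, 1, PRP3, reached the level for testing, and the list summed to 11.5 to 15.2 TPM in WT_dark 1-3 and to at most 1.15 TPM in the other 6 libraries. Among the epidermis markers, PDF1, an epidermal protein gene, was listed at 459, 428 and 481 TPM in WT_dark 1-3, 118, 294 and 166 TPM in WT_dark 4-6 and 78.5, 81.6 and 49.2 TPM in WT_blue, and PDF2, an epidermal regulator, fell by 1.1, with -0.62 against WT_dark 4-6. SUC2, the sucrose carrier of phloem companion cells, was listed at 82.0, 90.0 and 78.9 TPM in WT_dark 1-3, 29.7, 55.3 and 56.3 TPM in WT_dark 4-6 and 27.1, 26.4 and 17.4 TPM in WT_blue. Of the 4 tested sieve element and xylem markers 3 fell, with a median of -1.855 against WT_dark 1-3 and 0.09 against WT_dark 4-6. XCP1, of xylem, was -2.09 against WT_dark 1-3 and 0.82 against WT_dark 4-6. Mesophyll markers rose in 5 of 6, with a median of 1.19 and -0.02, and LHCB2.1 was listed at 114, 119.6 and 92.7 TPM in WT_dark 1-3, 96.2, 303 and 480.3 TPM in WT_dark 4-6 and 746, 960.2 and 647 TPM in WT_blue. Guard cell markers rose in 1 of 5 and fell in 2 against WT_dark 1-3, beside 28.7% and 32.9% of all loci, with a median of -0.43. Against WT_dark 4-6 the median was -0.97 and all 5 were lower, but 0 passed the test. Some genes stand in a marker list and in a list above: KCS10 among epidermis markers and wax genes, and CA1 and FBA2 among mesophyll markers and Calvin cycle genes. The part of these markers in the wall, wax and photosynthesis results was not tested.

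For some genes the sign of the light difference depended on the dark set. Among loci that passed the test with at least 2-fold change, 56 were higher than WT_dark 1-3 yet lower in every blue-light library than in every WT_dark 4-6 library, and 33 showed the reverse. LAC11, a laccase of lignin formation, was listed at 48.5, 41.4 and 48.2 TPM in WT_dark 1-3, 1.63, 1.48 and 2.36 TPM in WT_dark 4-6 and 2.41, 3.09 and 3.82 TPM in WT_blue. FTM1, a fatty acid desaturase family gene, was listed at 0.85, 0.13 and 0.56 TPM in WT_dark 1-3, 98.8, 59.5 and 27.1 TPM in WT_dark 4-6 and 24.6, 8.79 and 8.49 TPM in WT_blue. Both showed their larger gap between the dark sets. PME5, a pectin methylesterase, was listed at 5.84, 4.56 and 5.42 TPM in WT_dark 1-3, 42.6, 41.5 and 41.6 TPM in WT_dark 4-6 and 30.2, 28.9 and 17.7 TPM in WT_blue. XCP2, a xylem peptidase, was listed at 84.2, 74.2 and 85.8 TPM in WT_dark 1-3, 11.97, 10.2 and 15.8 TPM in WT_dark 4-6 and 17.03, 16.99 and 33.2 TPM in WT_blue. No direction of change in light is given for these 4 genes, as the dark sets gave opposite ones.

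The cry2-1 mutant went through the same light step, and its response was compared with that of wild type in 1 fit. In cry2-1, 5149 loci (25.8%) were higher in blue light and 6031 (30.2%) lower. Of the separated wild-type loci, 1063 of the 1121 higher ones and 1196 of the 1260 lower ones passed the test in the same direction in cry2-1. The header names carry the prefix Db in cry2_dark and M in cry2_blue. In cry2-1, too, light and the series of libraries therefore cannot be told apart. For endodermis markers the median was -2.11 in cry2-1, beside -2.34 in wild type against WT_dark 1-3 and -0.16 against WT_dark 4-6. The response itself differed between the genotypes at 561 loci (2.81%), of which 51 were separated higher and 75 separated lower in wild type. This count was sensitive to single libraries: it was 131, 109 and 213 without WT_dark 1, 2 or 3, and 266, 248 and 1555 without WT_blue 1, 2 or 3. It was 4472 with WT_dark 4-6 in place of WT_dark 1-3 for wild type and 4 with all 6 dark libraries.

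Of the named genes, 10 had a response that differed, and in all 10 it was smaller in cry2-1. Named genes were picked mostly by their change in wild type, and the same values enter this difference, which favours a smaller response in cry2-1. ELIP1 rose by 5.24 in wild type and 3.98 in cry2-1, a difference of -1.26 ± 0.26 (SE, adjusted p = 0.0313). CAB2 rose by 4.70 and 2.66, a difference of -2.04 ± 0.39 (SE, adjusted p = 0.0281), and CA1 by 2.31 and 1.37. Among the falls, PCK1 changed by -1.38 in wild type and -0.44 in cry2-1, and AMT1;3 by -3.20 and -1.85. Of the heat shock genes, HSFA2 rose by 4.91 and 4.51, and HSP70 by 3.06 and 2.83, in wild type and cry2-1. Their differences, -0.40 ± 0.34 (SE, adjusted p = 0.563) and -0.23 ± 0.24 (SE, adjusted p = 0.652), did not pass the test. RUP2 and SPA3 rose by 3.17 and 2.98 in wild type and by 3.45 and 2.82 in cry2-1.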

How the data were processed

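Gene expression was measured by mRNA sequencing of seedlings. The authors deposited 1 TPM value per locus and library, made with fastp, HISAT2 and StringTie on TAIR10, per the submitters' processing notes. Their versions and options are not given in the sources read. TPM are not counts and keep no read totals, so no count test was used and no interval for counting error can be given.

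Log2(TPM + 1) was tested with limma 3.58.1 in R 4.3.3, with trend and robust moderation, on 12 libraries: WT_dark 1-3, WT_blue, cry2_dark and cry2_blue. Loci needed a mean of at least 1 TPM over these. P-values were adjusted by the Benjamini-Hochberg method over all 19985 loci, and the threshold was 0.05. WT_dark 4-6 entered no main fit. Fold changes on this scale understate changes of low genes.

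Named genes were those with a symbol. They were the 12 largest separated rises and falls with a mean of at least 2 TPM in wild type, and all switched-on genes. To these came the 6 largest gains and losses of TPM among separated protein-coding loci. Further ones were up to 4 separated genes per list, both directions together, and 4 genes with opposite signs against the dark sets. Other list members are named to show those that differed from most of a list or did not pass the test, and were chosen after their values were seen. The comparison, the lists and the naming rule were chosen with earlier results of these data known. Of 492 list entries, 478 were matched to a locus. Names, families and promoters came from RefSeq TAIR10.1, in which 32548 of 32833 loci were found; the deposited values carry no coordinates. Alternatives were another pseudocount, filter, scaling, moderation, set of libraries or dark reference, the replicate number as a block, and each library left out. The flΔ4 libraries were not used here. Some named items are not reported here.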

Additional observations from a re-analysis of the deposited data

Results flagged for a closer look

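In 10 named genes, 1 of the 6 dark wild-type libraries lay apart from the other 5 by Dixon's criterion; chance marks about 1 in 20 groups. WT_dark 6 was the high library in 7 of them: BBX32 with 0.98 TPM, BBX30 with 1.96 TPM, SIGE with 14.12 TPM, RUP2 with 17.54 TPM, VTC2 with 207.9 TPM, CML37 with 1.43 TPM and TIFY7 with 15.71 TPM. All 7 are separated loci, so by that rule their blue-light libraries lay above WT_dark 6. WT_dark 4 was high for HSP23.6-MITO, with 1.05 TPM, and low for GASA4, with 2424.1 TPM. WT_dark 5 was high for PORA, with 1777.2 TPM.

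In 10 named genes the response to blue light differed between cry2-1 and wild type by the test of that difference. Naming used the wild-type change, which also enters this difference and so favours a smaller response in cry2-1. The log2 response in cry2-1 minus that in wild type was -1.259 for ELIP1, -2.039 for CAB2, -0.6312 for FED_A, -0.8815 for LHCA1, -0.936 for CA1, -0.7189 for ARR9 and -4.928 for SNOR111, all of which rose in wild type. It was 1.348 for AMT1;3, 0.9426 for PCK1 and 1.893 for PRP3, which fell in wild type.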

How the results depend on the processing

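With WT_dark 4-6 as reference, 1805 loci were higher and 3989 lower, 743 were separated higher and 342 lower, and 4472 differed between genotypes. With all 6 dark libraries, 2230 were higher, 701 were separated lower and 4 differed between genotypes. With only WT_dark 4-6 and WT_blue in the fit, chosen after seeing the data, the counts were 1388 higher, 2021 lower, 731 separated higher and 305 separated lower. With log2(TPM + 5), 627 were separated lower, and limma without trend and robust moderation gave 278 loci that differed between genotypes. Leaving out 1 library at a time gave 5096 to 6036 higher, 5817 to 6476 lower, 1092 to 1609 separated higher, 1203 to 1467 separated lower and 109 to 1555 that differed between genotypes. Without rRNA and organelle loci, 5097 were higher and 7422 lower, and the median of all loci was -0.13. The cause of these shifts was not tested. Of the 110 named genes, LAC11 (0.54), FTM1 (-2.05), PME5 (-0.73) and XCP2 (0.73) changed sign against WT_dark 4-6 in both fits with that reference, and U1.6, NAS2, ZIP3, CLE5, FED_A and CSY2 lost their call in the fit of 12 libraries. In the fit of only WT_dark 4-6 and WT_blue, 22 named genes lost it: CYP71B17, U1.6, ZIP3, FED_A, PIP3, DDB1A, STE1, ARR6, CA1, PKT3, CSY2, ASN1, TUB1, TUB6, HA3, KCS10, CER2, LACS1, GLK2, LHCB2.1, PDF2 and SUC2. With all 6 dark libraries 7 lost it: NAS2, CLE5, PRP3, LAC11, FTM1, PME5 and XCP2. With the replicate number as a block, 5727 were higher, 6537 lower, 1121 separated higher, 1259 separated lower and 391 differed between genotypes. Libraries with the same number did not deviate together (correlations of -0.004, -0.007 and -0.055). The labels do not say whether they were grown or handled together. The block changed no call of a named gene.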
